A study of Homo sapiens with 5 samples.

Results

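Ribosome footprints on 55 genes of tRNA modification were followed in HAP1 cells without METTL18 and in their wild-type counterpart. Members were taken from the deposited table by gene symbol, as families of tRNA methyltransferases, pseudouridine, dihydrouridine and queuine enzymes, deaminases, Elongator and related wobble-base enzymes, with TRMT112 left out. They make up 55 of the 14042 symbols in the table. The selection used symbols, not measured values, but was made with earlier results of these data known. HAP1 is an established near-haploid human line of leukaemic origin that grows attached. The labels put 3 libraries under the genotype METTL18 knockout and 2 under wild type, name no treatment, and do not say whether the knockout libraries come from a single clone or from separate cultures, so the p-values weigh differences against a library-to-library spread that could be purely technical. METTL18 methylates a histidine of RPL3, a large-subunit ribosomal protein, and the study asked what the enzyme targets and does. In a footprint count, more mRNA and more ribosomes on each mRNA cannot be told apart, and neither can fewer expressing cells and less RNA per cell.

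Transfer RNAs carry more kinds of chemical modification than any other RNA. Those in the anticodon loop, above all at the wobble base that reads the last letter of a codon and at the purine next to the anticodon, tune how fast and how accurately codons are read. Modifications in the body of the tRNA hold its fold and protect it from decay. Several of the enzymes work as obligate pairs or larger complexes, and inherited defects in many of them cause neurological or mitochondrial disease.

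The knockout libraries held 16339574 to 17629199 counts and the wild-type libraries 4887380 and 5302160, so depth ran with genotype. METTL18 itself stood at 2.10 ± 0.117 CPM in the knockout (SD, n = 3) and 5.71 ± 0.211 CPM in the wild type (SD, n = 2), which were lower values in the libraries labelled knockout, with footprints left in all of them. CPM is the count set relative to a common library size after TMM scaling, a correction for library composition. A gene was called higher or lower at an adjusted p under 0.05 in edgeR's quasi-likelihood test with Benjamini-Hochberg adjustment over 11335 genes, and log2 fold changes are knockout over wild type, with the SE of the fit. Of 10 haematopoietic markers, 5 were in the table, with CD33 at 0 and CD34 at 0 in the knockout. Their summed level was 61.9 to 70.8 CPM in the knockout and 34.8 to 35.9 CPM in the wild type, of which GATA2, called higher, made 56.8 CPM in the knockout and 15.5 CPM in the wild type. KIT (7.81 CPM in the knockout and 11.1 CPM in the wild type) and TAL1 (1.92 CPM in the knockout and 8.34 CPM in the wild type) were called lower. Of 5 epithelial markers 4 were in the table, summing to 183 to 186 CPM in the knockout and 142.2 to 150.7 CPM in the wild type. KRT18 made most of that sum, at 171 CPM in the knockout and 145 CPM in the wild type, and was called higher. CDH1 stood at 12.4 CPM in the knockout and 0.0842 CPM in the wild type and was called higher, while EPCAM did not pass. The 5 of 7 fibroblast markers in the table summed to 24.2 to 26.3 CPM in the knockout and 16.3 to 17.9 CPM in the wild type, and the 5 of 6 pluripotent or germ cell markers to 399 to 431 CPM in the knockout and 149.9 to 152.2 CPM in the wild type. In the last set ZFP42 had 2191, 2341 and 2181 counts in the knockout libraries and 0 in both wild-type libraries. DPPA4 stood at 270.3 CPM in the knockout and 150.5 CPM in the wild type. NANOG stood at 0.968 CPM in the knockout and 0 in the wild type. All of these were called higher. DDX4, with too few counts to be tested, went the other way (0.233 CPM in the knockout and 0.520 CPM in the wild type). POU5F1, also untested, had at most 1 count in any library. The part of these marker differences in the results was not tested.

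Footprints on the tRNA modification genes changed in both directions in the knockout. Of the 55 members, all of which passed the low-count filter, 21 rose, 17 fell and 17 did not pass. That is 69.1% called, where 74.4% of all tested genes were called (37.8% higher and 36.6% lower), so the share of changed genes was no larger here than in the table as a whole. The median log2 fold change of the members was 0.14, with quartiles of -0.34 and 0.61, beside a median of 0.0161 and quartiles of -0.61 and 0.57 for all genes tested. Knockout and wild-type values did not overlap for 48 members (87.3%), against 83.5% of all genes tested. More than 2-fold, 8 members were higher and 1 was lower, where 12.8% of all tested genes were higher and 14.7% lower by that size. The 8 were ADAT3, ALKBH1, NSUN3, PUS1, METTL1, WDR4, CTU1 and TRMT12, and the 1 was ELP3. With total-count scaling in place of TMM, which lowered the median of all genes to -0.26, 14 members were called higher and 25 lower, with 2982 higher and 5597 lower over all genes.

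**Figure D1:**
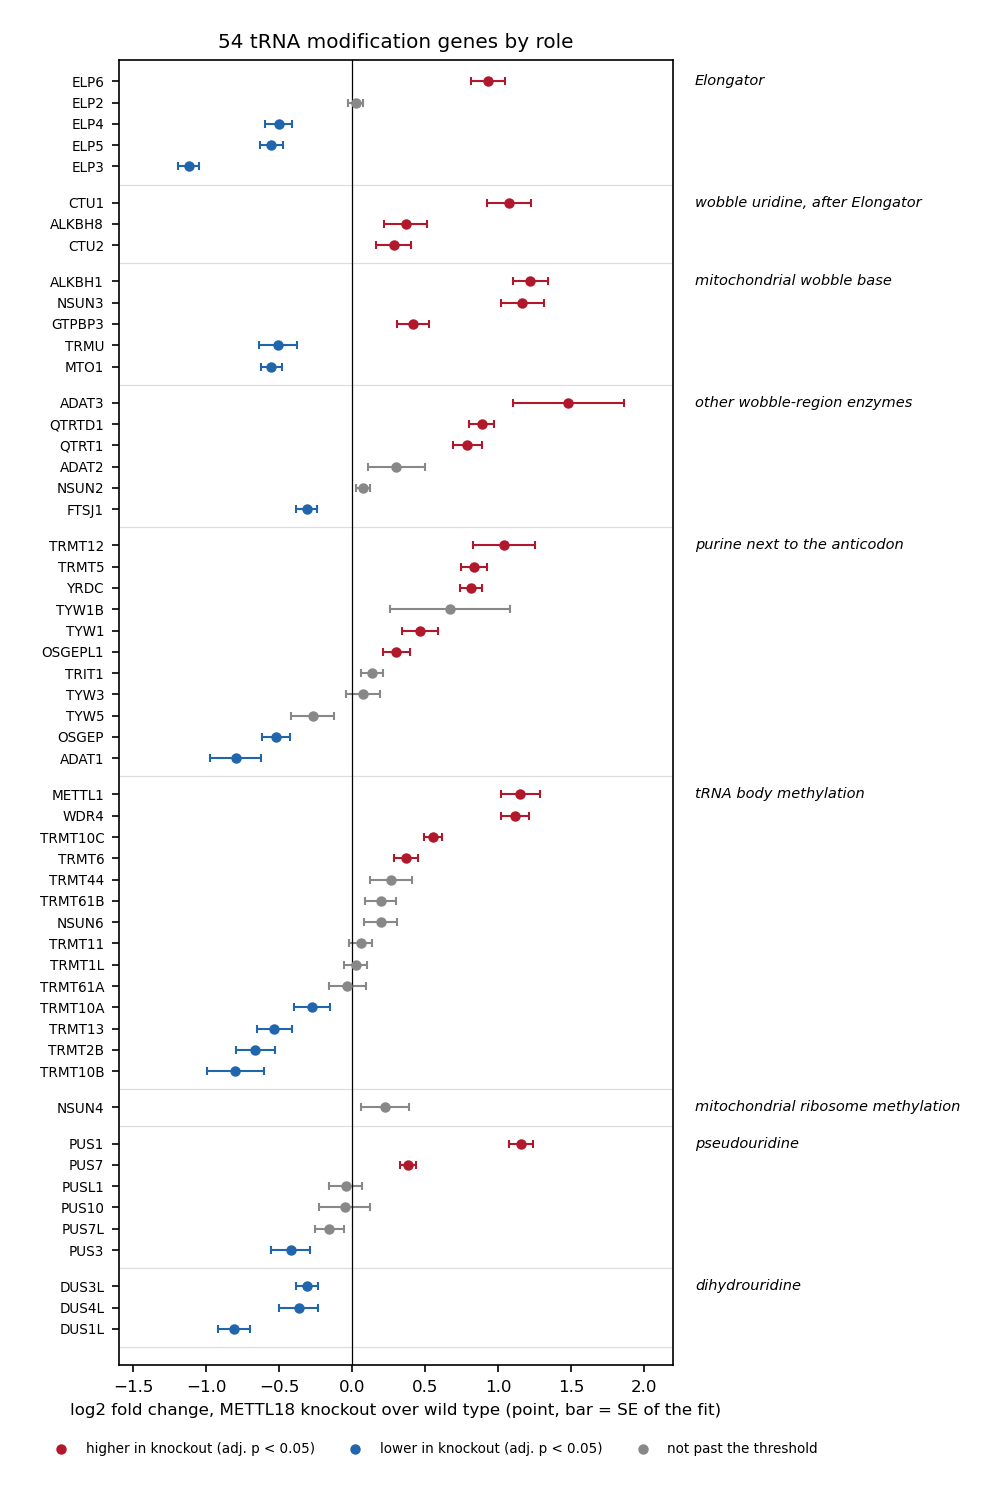
Log2 fold change of each of 54 genes (knockout over wild type, horizontal axis), grouped by the base or region of the tRNA their enzyme works on. Points are estimates of the fit over 3 knockout and 2 wild-type libraries and bars are its SE; 21 genes lie on the higher side and 16 on the lower side of 0 past the threshold, and most roles hold both.

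Together the 55 genes took a slightly smaller share of all raw counts in the knockout, at 0.201% ± 0.00125 (SD, n = 3), than in the wild type, at 0.227% ± 0.00182 (SD, n = 2). The 3 knockout shares all lay below both wild-type shares, but the direction turned with TMM scaling. On that scale the members summed to 2170.5 ± 4.84 CPM (SD, n = 3) in the knockout and 2026 ± 14.1 CPM (SD, n = 2) in the wild type. Footprint density, as CPM per kilobase of coding sequence, allows genes to be compared in level. In the knockout the densest member was TRMT10C at 113 ± 3.08 CPM per kb, followed by YRDC at 107 ± 5.85 CPM per kb, which overlapped it within their SDs, and then NSUN2 at 95.9 ± 1.63 CPM per kb. In the wild type the order began with NSUN2 at 91.2 ± 0.631 CPM per kb, then TRMT10C at 77.0 ± 3.49 CPM per kb and ELP2 at 76.1 ± 0.411 CPM per kb, the last pair again within their SDs. The least dense members in both groups were ADAT3, at 2.90 CPM per kb in the knockout and 1.03 CPM per kb in the wild type, and TYW1B, at 0.907 CPM per kb in the knockout and 0.568 CPM per kb in the wild type. ELP3 stood 20th of 55 in density in the knockout and 8th in the wild type.

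Elongator held the largest fall among the members together with a subunit that rose. It adds the first side chain to wobble uridines of cytosolic tRNAs. ELP2 belongs to its scaffold, ELP3 is its catalytic subunit, and ELP4, ELP5 and ELP6 form a ring that binds the tRNA and uses ATP. Of the 5 subunits described here ELP3, ELP4 and ELP5 fell, ELP6 rose and ELP2 did not pass. Over all tested genes 36.6% were lower and 37.8% higher. The 3 falls held under every scaling, and total-count scaling called ELP2 lower as well (log2 fold change -0.25).

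ELP3, on hg38 chromosome 8 (28090231 to 28191156, plus strand), had 39.9, 38.2 and 40.5 CPM in the knockout libraries, against 87.9 and 83.8 CPM in the wild-type libraries. The groups lay far apart, and the log2 fold change of -1.12 (SE 0.0701, edgeR adjusted p = 5.05e-18) was the largest fall among the members. ELP2, in the scaffold, had 194, 186 and 195 CPM in the knockout, against 188 and 189 CPM in the wild type, and these ranges overlapped.

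The ring subunits moved in opposite directions. ELP6 had 27.0, 27.7 and 28.0 CPM in the knockout, against 13.6 and 15.4 CPM in the wild type (log2 fold change 0.93, SE 0.116, edgeR adjusted p = 2.17e-09). ELP4 had 26.9, 30.0 and 30.1 CPM in the knockout, against 39.9 and 42.6 CPM in the wild type (log2 fold change -0.51). ELP5 had 38.4, 41.2 and 39.3 CPM in the knockout, against 56.6 and 59.8 CPM in the wild type (log2 fold change -0.55). For each of the 3 the groups did not overlap. The 15 tested genes within 2 Mb of ELP4 had a median log2 fold change of -0.62, with 4 higher and 8 lower. That median was 0.27 for 59 genes around ELP5 (30 higher and 19 lower) and 0.13 for 49 genes around ELP6 (23 higher and 11 lower). The part of position in these changes was not tested. Per kilobase, ELP6 stood at 34.6 CPM in the knockout and 18.2 CPM in the wild type, ELP4 at 22.8 CPM in the knockout and 32.4 CPM in the wild type, and ELP5 at 41.8 CPM in the knockout and 61.4 CPM in the wild type.

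**Figure D2:**
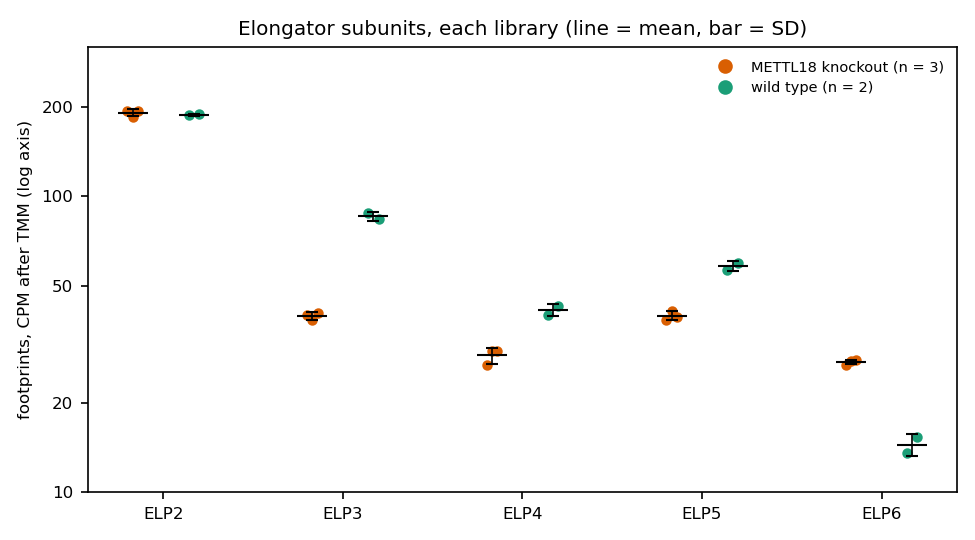
CPM of 5 Elongator subunits in each library, on a log axis, knockout (n = 3) left of wild type (n = 2); horizontal lines are means and bars SDs. ELP3, ELP4 and ELP5 lie lower in every knockout library, ELP6 lies higher in every one, and ELP2 overlaps.

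A ratio of 2 genes within a library needs no scaling factor. The log2 ratio of ELP6 to ELP4 counts was 0.00353, -0.12 and -0.10 in the knockout libraries, against -1.55 and -1.47 in the wild-type libraries, a difference of 1.44 or 2.71-fold. ELP6 to ELP5 differed by 1.49 on the same scale, while ELP5 to ELP4 was 0.45 ± 0.0626 in the knockout (SD, n = 3) and 0.496 ± 0.0103 in the wild type (SD, n = 2), a difference of -0.0465 that lay within the spread of the knockout libraries. An exact permutation test of 3 libraries against 2 cannot give a two-sided p below 0.1. It gave that value for ELP6 to ELP4 and ELP6 to ELP5 (0.18 adjusted over 9 pairs), and 0.5 for ELP5 to ELP4. These 3 Elongator pairs were chosen after the subunits' values were seen.

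The stretches upstream of the 3 ring genes are shown because these genes encode neighbours in 1 ring and yet moved apart. They are from the RefSeq promoter table (GRCh38.p14), read 5′ to 3′ on the gene's strand from 250 bases before the RefSeq start up to the first base of the counted transcript or the RefSeq start, whichever comes first. Capitals mark matches to any of 7 searched motifs, and the matches are listed after the sequences.
ELP6, chr3:47513762-47513962, minus strand: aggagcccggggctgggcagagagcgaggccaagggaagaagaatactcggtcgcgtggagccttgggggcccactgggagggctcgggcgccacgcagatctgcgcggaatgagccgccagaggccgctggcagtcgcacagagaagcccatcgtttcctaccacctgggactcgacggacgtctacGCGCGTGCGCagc
ELP4, chr11:31509517-31509761, plus strand: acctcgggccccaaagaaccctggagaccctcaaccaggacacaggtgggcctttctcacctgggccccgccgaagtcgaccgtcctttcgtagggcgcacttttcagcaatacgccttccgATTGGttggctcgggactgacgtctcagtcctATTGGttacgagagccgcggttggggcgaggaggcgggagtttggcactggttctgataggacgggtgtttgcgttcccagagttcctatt
ELP5, chr17:7251965-7252052, plus strand: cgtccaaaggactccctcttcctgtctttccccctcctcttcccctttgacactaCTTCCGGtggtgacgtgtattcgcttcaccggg

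The ELP6 stretch holds a match to the NRF1 motif beginning 62 bases before the start, on the reverse strand, the ELP4 stretch holds 2 CCAAT boxes (CCAAT) on the reverse strand, and the ELP5 stretch holds 1 ETS core (CCGGAAG) on the reverse strand. The other motifs searched on both strands were the E-box CACGTG, the GC box GGGCGG, the cAMP element TGACGTCA and the ATF4 element TGATGNAA. No match overlapped another in these stretches, and bases after them were not printed, where ELP5 has an NRF1 and a GC box match and ELP6 a CCAAT match. Of the 55 members, 44 were matched to a promoter in the table. Over the full 250 upstream bases, NRF1 was present in 11.4% of these 44 and 10.9% of 9064 promoters of measured genes. CCAAT was present in 34.1% and 35.5%, ETS in 27.3% and 16.6%, the GC box in 63.6% and 71.7%, the cAMP element in 6.82% and 3.05%, the E-box in 2.27% and 8.90%, and the ATF4 element in 0% and 1.16%. The ETS core was found in 5 of 18 members that rose, 4 of 14 that fell and 3 of 12 that did not pass. The motifs, too, were searched after the values were seen, and a match only says that these letters are in the window.

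The fall of ELP3 stood beside falls of nearly all its neighbours on chromosome 8. Within 2 Mb of ELP3, 23 other genes were tested, of which 19 fell, none rose and 4 did not pass, with a median log2 fold change of -0.86. Within 10 Mb, 66 of 78 fell and 1 rose (median -1.04), and ELP3 was not extreme there, since 34 of the 78 were lower still. Between 20 and 40 Mb along the chromosome 70 of 85 genes fell and 1 rose (median -1.002), and between 0 and 20 Mb 28 of 35 fell and 2 rose (median -0.99). Between 40 and 60 Mb 25 of 44 fell and 13 rose (median -0.47). From 60 Mb on, the medians of bins of 20 Mb ran from 0.0131 to 0.17. TRMT12, the other member on chromosome 8, lies in that further part. Its 20 tested neighbours within 2 Mb had a median of 0.0841, with 8 higher and 4 lower, and TRMT12 itself rose. Position was looked at after the values were seen, and its part in the fall of ELP3 was not tested. Over all 55 members, the log2 fold change and the median of the genes within 2 Mb had a Spearman rho of 0.28, a description over genes that share libraries.

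**Figure D3:**
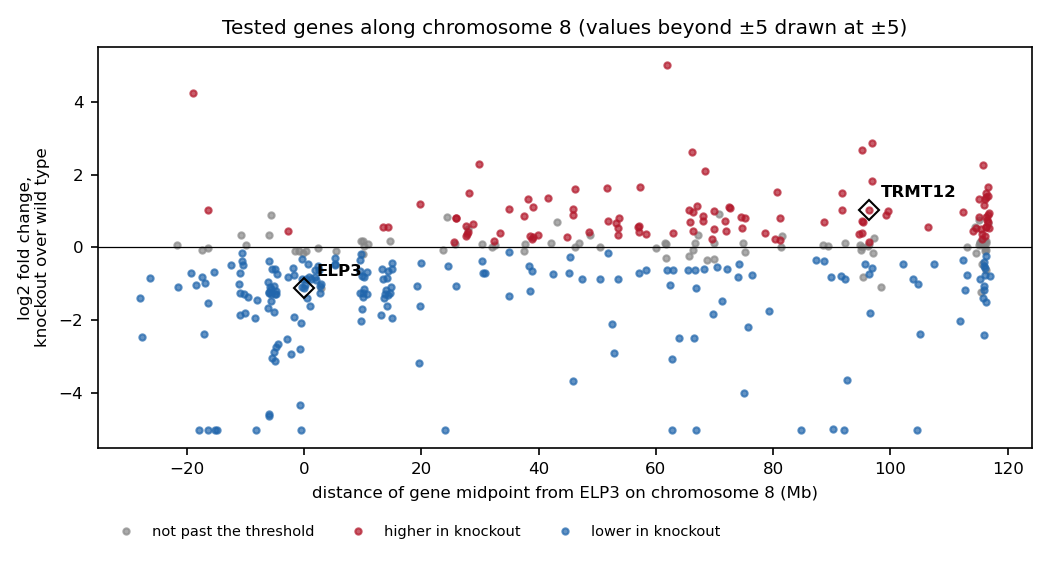
Log2 fold change (knockout over wild type, vertical axis) of every tested gene of chromosome 8 against its distance from ELP3 in Mb, with values beyond the axis limit drawn at it. Points from 10 Mb below to 10 Mb above ELP3 lie mostly under 0 (66 of 78 called lower), whereas TRMT12, at the far end, lies in a stretch with calls on both sides.

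Beyond Elongator, all 3 enzymes that finish the cytosolic wobble uridine rose, where 37.8% of all tested genes were called higher. CTU1 and CTU2 form the thiolase that replaces an oxygen by sulphur. CTU1 had 18.1, 17.02 and 19.9 CPM in the knockout, against 7.41 and 10.1 CPM in the wild type (log2 fold change 1.08, SE 0.150, edgeR adjusted p = 3.23e-08). CTU2 had 19.1, 18.6 and 18.02 CPM in the knockout, against 15.8 and 14.6 CPM in the wild type, and the smaller change of 0.28 (edgeR adjusted p = 0.0352) was lost in 9 of the alternatives tried besides a required fold, total-count scaling (0.0118) among them. The genes around both stood higher as well, with a median of 0.85 for 65 genes within 2 Mb of CTU1 and 0.77 for 38 genes around CTU2. The log2 ratio of CTU1 to CTU2 counts was -0.0221 ± 0.142 in the knockout (SD, n = 3) and -0.82 ± 0.392 in the wild type (SD, n = 2), a difference of 0.796 (exact permutation p = 0.1, the smallest possible). It was 0.52 without wild type replicate 1. ALKBH8, which adds the last methyl group and hydroxylates the side chain, rose by 0.37 (edgeR adjusted p = 0.0230), a call lost in 5 alternatives besides a required fold, with 0.0960 under total-count scaling.

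Of the 5 enzymes of mitochondrial wobble bases 3 rose and 2 fell, where 37.8% of all tested genes were higher and 36.6% lower. NSUN3 and ALKBH1, which work in sequence to make formylcytosine at the wobble base of the mitochondrial methionine tRNA, both rose more than 2-fold. ALKBH1 had 28.7, 28.0 and 28.6 CPM in the knockout, against 11.4 and 13.0 CPM in the wild type (log2 fold change 1.22, SE 0.120, edgeR adjusted p = 5.32e-12). NSUN3 had 17.1, 18.2 and 17.8 CPM in the knockout, against 7.41 and 8.42 CPM in the wild type (log2 fold change 1.17, SE 0.148, edgeR adjusted p = 3.46e-09). In both genes every knockout library was above both wild-type libraries.

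Wobble uridines in mitochondria are modified by MTO1 with GTPBP3, which add a taurine-bearing side chain, and by TRMU, which thiolates them. MTO1 had 47.9, 55.2 and 49.4 CPM in the knockout, against 71.7 and 77.8 CPM in the wild type (log2 fold change -0.55, SE 0.0741, edgeR adjusted p = 1.21e-08). TRMU fell by 0.51 on the log2 scale (edgeR adjusted p = 0.000666), while GTPBP3, the GTPase that works with MTO1, rose by 0.42 (edgeR adjusted p = 0.000799), a call lost with total-count scaling (0.15). The 2 partners MTO1 and GTPBP3 thus were called in opposite directions.

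Among the other enzymes of the wobble base and its surroundings, both subunits of the queuine transferase rose together. QTRT1 is its catalytic subunit and QTRTD1, now named QTRT2, its partner, and they exchange a guanine for queuine at the wobble base. QTRT1 had 44.9, 43.5 and 50.6 CPM in the knockout, against 28.96 and 24.5 CPM in the wild type (log2 fold change 0.79). QTRTD1 had 58.9, 58.9 and 58.8 CPM in the knockout, against 34.0 and 29.5 CPM in the wild type (log2 fold change 0.89). The log2 ratio of QTRT1 to QTRTD1 was -0.35 ± 0.116 in the knockout and -0.25 ± 0.0233 in the wild type, a difference of -0.0996 within the knockout spread. Genes near both were higher too, with a median of 0.79 for 76 genes within 2 Mb of QTRT1 and 0.47 for 19 genes around QTRTD1.

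ADAT2 and ADAT3, the subunits that turn wobble adenosine into inosine, differed in their calls. ADAT3 had 47, 64 and 40 counts in the knockout and 7 and 6 counts in the wild type, which are 3.10, 3.93 and 2.54 CPM in the knockout and 1.18 and 1.10 CPM in the wild type (log2 fold change 1.48, SE 0.379, edgeR adjusted p = 0.000619). This was the largest rise among the members and rested on the fewest counts of any called member. ADAT2, the catalytic subunit, had 6.80, 7.80 and 6.47 CPM in the knockout, against 5.89 and 5.49 CPM in the wild type, and did not pass (log2 fold change 0.30, edgeR adjusted p = 0.161). As a log2 ratio, ADAT3 to ADAT2 was 1.16 higher in the knockout (exact permutation p = 0.1). FTSJ1, which methylates riboses in the anticodon loop, fell by 0.31 on the log2 scale (edgeR adjusted p = 0.000127). The 42 tested genes within 2 Mb of FTSJ1 had a median log2 fold change of -0.34, with 12 higher and 21 lower. The part of position in its fall was not tested. NSUN2, the main methylcytosine enzyme of cytosolic tRNA, had 221, 224 and 217 CPM in the knockout, against 211 and 209 CPM in the wild type, and did not pass (log2 fold change 0.0722). Total-count scaling turned NSUN2 to -0.20 and called it lower.

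The purine next to the anticodon is modified by several separate pathways, and 5 of their 11 genes rose, 2 fell and 4 did not pass. That is 45.5% higher and 18.2% lower, beside 37.8% higher and 36.6% lower over all tested genes. TRMT5 makes the methylguanosine from which wybutosine, a bulky tricyclic base of phenylalanine tRNA, is built, and it rose by 0.84 (edgeR adjusted p = 3.74e-11). TRMT12, a later enzyme of that path, had 8.58, 10.7 and 7.74 CPM in the knockout, against 4.88 and 3.84 CPM in the wild type (log2 fold change 1.04, SE 0.215, edgeR adjusted p = 3.85e-05). TYW1, which follows TRMT5, rose by 0.46, a call lost without wild type replicate 2 (0.28) and with total-count scaling (0.19). TYW3 (0.0733) and TYW5 (-0.27) of the same path did not pass. TYW1 and its paralogue TYW1B (0.67, not past) are uncertain, since 42.9% and 35.9% of their windows of 28 bases occur in no other gene's transcripts. In the threonylcarbamoyl path YRDC, which makes the activated precursor, rose to 83.7, 91.1 and 93.0 CPM in the knockout, against 52.7 and 48.7 CPM in the wild type (log2 fold change 0.82), whereas OSGEP, the cytosolic transferase that uses it, fell by 0.52 on the log2 scale. OSGEPL1, its mitochondrial counterpart, rose by 0.30 (edgeR adjusted p = 0.00437), a call lost without wild type replicate 1 (0.26) and with total-count scaling (0.0314). TRIT1, the isopentenyl transferase, did not pass (0.14). ADAT1, the deaminase of alanine tRNA, had 5.55, 6.08 and 6.22 CPM in the knockout, against 8.76 and 12.1 CPM in the wild type (log2 fold change -0.797, SE 0.175, edgeR adjusted p = 9.02e-05).

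METTL1 and WDR4 rose by nearly the same amount. They are the catalytic and the structural subunit of the methylguanosine writer of the variable loop. METTL1 had 27.3, 29.6 and 24.4 CPM in the knockout, against 14.3 and 9.88 CPM in the wild type (log2 fold change 1.15, SE 0.135, edgeR adjusted p = 4.72e-10). WDR4 had 51.2, 45.8 and 46.7 CPM in the knockout, against 22.7 and 21.4 CPM in the wild type (log2 fold change 1.12, SE 0.0971, edgeR adjusted p = 1.55e-13). The log2 ratio of METTL1 to WDR4 was -0.83 ± 0.167 in the knockout (SD, n = 3) and -0.89 ± 0.317 in the wild type (SD, n = 2), so the difference of 0.0660 was smaller than the spread of either group (exact permutation p = 0.9). Of METTL1's windows 77.5% occur in no other gene's transcripts.

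**Figure D4:**
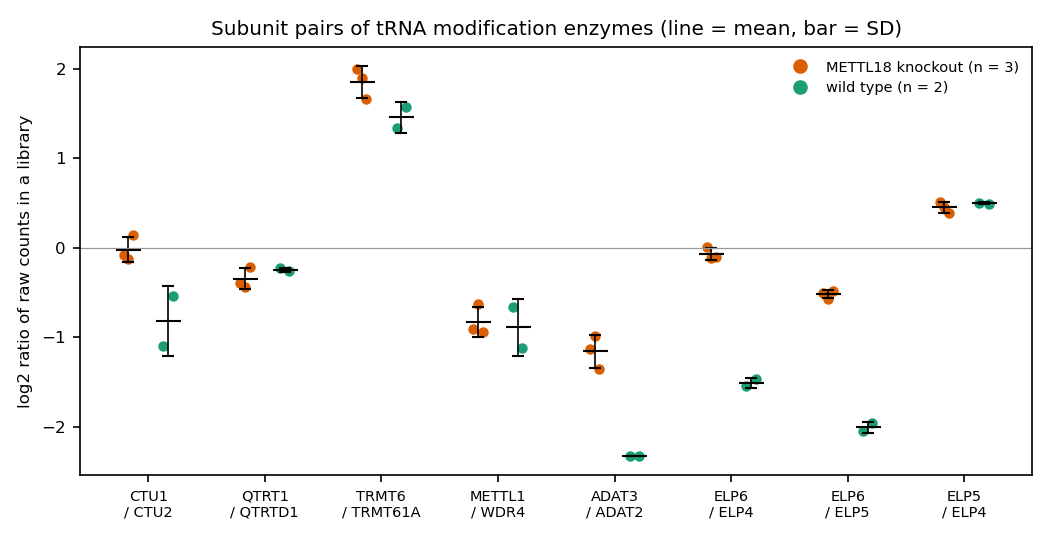
Log2 ratio of raw counts of 2 subunits in each library, for 8 pairs, knockout (n = 3) left of wild type (n = 2); lines are means and bars SDs. The pairs QTRT1/QTRTD1, METTL1/WDR4 and ELP5/ELP4 overlap between groups, while the 2 pairs with ELP6 differ by 1.44 and 1.49.

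The remaining methyltransferases of the tRNA body did not move as a block. TRMT10C, a subunit of the mitochondrial RNase P that also methylates mitochondrial tRNA, rose by 0.55 (edgeR adjusted p = 5.06e-11). Its relatives TRMT10A, with 21.9, 17.8 and 16.1 CPM in the knockout against 22.9 and 22.1 CPM in the wild type, and TRMT10B, with 3.90, 4.73 and 5.08 CPM in the knockout against 7.75 and 8.23 CPM in the wild type, were called lower (log2 fold changes -0.28 and -0.80). The call of TRMT10A (edgeR adjusted p = 0.0408) was lost in 7 alternatives besides a required fold, including the fit with the replicate number as a block (-0.18). TRMT6 and TRMT61A form the methyladenosine writer of the T-loop. TRMT6 had 69.7, 59.2 and 60.7 CPM in the knockout, against 48.8 and 49.03 CPM in the wild type, and rose by 0.37 (edgeR adjusted p = 8.93e-05; 0.0966 and not past with total-count scaling). TRMT61A, the catalytic subunit, had 17.5, 15.9 and 19.3 CPM in the knockout, against 19.4 and 16.5 CPM in the wild type, and did not pass (log2 fold change -0.0334). In log2 ratio, TRMT6 to TRMT61A differed by 0.39 (exact permutation p = 0.2).

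TRMT2B, a mitochondrial methyluridine enzyme, had 10.1, 11.7 and 11.5 CPM in the knockout, against 17.7 and 17.56 CPM in the wild type (log2 fold change -0.66, SE 0.131, edgeR adjusted p = 1.97e-05). Its 18 tested neighbours within 2 Mb had a median of -0.35, with 5 higher and 10 lower. TRMT13, which methylates riboses of the acceptor stem, fell by 0.54 on the log2 scale. TRMT61B (0.20), a mitochondrial methyladenosine enzyme, TRMT11 (0.0573), NSUN6 (0.19), TRMT44 (0.26) and TRMT1L (0.0239) did not pass. NSUN4, matched by symbol although its target is the ribosomal RNA of mitochondria, did not pass either (0.22).

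PUS1 led the pseudouridine synthases. It modifies cytosolic and mitochondrial tRNAs, and mutations in it cause myopathy with sideroblastic anaemia. PUS1 had 72.9, 67.6 and 69.1 CPM in the knockout, against 32.8 and 29.6 CPM in the wild type (log2 fold change 1.16, SE 0.0832, edgeR adjusted p = 4.26e-16). PUS7 rose by 0.38, a call lost with total-count scaling (0.11), and PUS3, which acts in the anticodon stem-loop, fell by 0.42 on the log2 scale, a call lost without wild type replicate 1 (-0.21). PUS7L (-0.16), PUS10 (-0.0522) and PUSL1 (-0.0441) did not pass, although total-count scaling called PUS7L (-0.43) and PUSL1 (-0.32) lower. In PUSL1, PUS10, TRMT61A, ELP2, TRMT1L, TYW3 and NSUN4 the groups overlapped.

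All 3 dihydrouridine synthases of the set fell, where 36.6% of all tested genes were called lower. These enzymes reduce uridines of the D-loop and the variable loop. DUS1L had 15.7, 15.3 and 15.1 CPM in the knockout, against 25.9 and 28.0 CPM in the wild type (log2 fold change -0.81, SE 0.108, edgeR adjusted p = 1.24e-08). DUS3L (-0.31) and DUS4L (-0.37, edgeR adjusted p = 0.0134) fell less, and the call of DUS4L was lost with DESeq2 (-0.38) and without wild type replicate 2 (-0.32). DUS2, whose symbol the selection did not match and which was looked up for that reason, stood at 28.7 ± 1.76 CPM in the knockout (SD, n = 3) and 33.9 ± 2.60 CPM in the wild type (SD, n = 2), a log2 fold change of -0.24 (edgeR adjusted p = 0.0205). The 3 falls kept their direction with each scaling tried.

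Grouped by place of action, the 10 enzymes that work in mitochondria alone or mainly (MTO1, GTPBP3, TRMU, NSUN3, ALKBH1, TRMT10C, TRMT61B, TRMT2B, OSGEPL1 and NSUN4) comprised 5 that rose, 3 that fell and 2 that did not pass, with a median of 0.26. Of all tested genes 37.8% were higher and 36.6% lower, against 50% and 30% of these 10. Over the 55 members the log2 fold change had a Spearman rho of -0.18 with coding length, 0.21 with the GC content of the coding sequence and -0.25 with wild-type footprint density. The value for coding length over 11284 tested genes was -0.17. These are descriptions over genes that share the same libraries. Wild-type values also form the denominator of the fold change, so noise in them makes the rho with wild-type density more negative.

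Other genes of tRNA biology and related RNA modification were described from lists drawn up by function, and not every listed enzyme need act on tRNA. Of 43 further modification genes and cofactors listed, 32 were tested, of which 14 rose, 11 fell and 7 did not pass, with a median of 0.0412. That is 43.8% higher and 34.4% lower, beside 37.8% higher and 36.6% lower over all tested genes. TRUB2, a mitochondrial pseudouridine synthase, rose to 91.8 CPM in the knockout, against 44.0 CPM in the wild type (log2 fold change 1.06). MOCS3, which passes sulphur towards the CTU thiolase, rose by 0.99 and RPUSD3 by 0.99. CDKAL1, the methylthiotransferase of lysine tRNA linked to type II diabetes, fell by 0.79 and TARBP1, a ribose methyltransferase, by 1.37 on the log2 scale. KIAA1456, now named TRMT9B, had no count in any knockout library and 1.75 CPM over the pooled wild-type libraries, which is at least 27.6-fold lower against a floor of 3 counts over the knockout group. It lies on chromosome 8, at a distance of -15.2 Mb from ELP3, where a negative value means nearer the start of the chromosome.

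In the list of tRNA end processing, splicing and CCA addition, 32 of 41 genes were tested, of which 19 rose, 6 fell and 7 did not pass, with a median of 0.42. Those shares were 59.4% higher and 18.8% lower, where 37.8% of all tested genes were higher and 36.6% lower. Under total-count scaling and every other alternative except a required fold of 1.5 the counts stayed within 1.5 times. RPP25, a subunit of nuclear RNase P, stood at 25.8 CPM in the knockout and 5.83 CPM in the wild type (log2 fold change 2.13), and its relative RPP25L rose by 1.79. THG1L, which adds the extra guanine of histidine tRNA, rose by 1.85. XPOT, the tRNA export receptor, fell to 130.3 CPM in the knockout, against 385 CPM in the wild type (log2 fold change -1.56). TSEN15, a subunit of the splicing endonuclease, fell by 1.72 and SLFN11, a nuclease-like factor that acts on tRNA, by 2.19 on the log2 scale.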

How the data were processed

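Ribosome-protected fragments of 28 to 32 bases were sequenced from 5 HAP1 libraries, per the labels' protocols. The authors deposited raw counts per transcript row, and Bowtie and hg38 are named in the submitters' processing notes; for the counting tool, the annotation and multi-mapping reads no source used here gives a statement. Where a symbol had several rows, the row with the most counts was used. Grouping is by labelled genotype. The deposited counts entered edgeR 4.0.16 under R 4.3.3 (TMM factors, filterByExpr with a minimum count of 10 and total of 15, robust quasi-likelihood fit, group as sole term, all genes). The fit was run on simulated counts with 200 genes changed. Since 74.4% of genes were called in the real data, that run cannot tell whether TMM scaling or the share called holds here. SE is the log2 fold change divided by the square root of F. limma 3.58.1 (voom) and DESeq2 1.42.0 were alternatives, as were other scalings and filters, a required fold, a non-robust fit, a replicate block, thinned knockout libraries and leaving out each library. Coding lengths, coordinates and windows of 28 bases came from GENCODE release 29 (hg38). Same-numbered libraries deviated from their group means with correlations of 0.00853 and 0.0231. With 2 wild-type libraries these deviations mirror each other, so the check cannot decide whether libraries were paired. Numbers were not taken as pairs because no label ties them to a common culture or day. Ratios were tested by an exact permutation test, two-sided. Named genes were all members, with values per library for the 8 largest rises and falls and for subunits of complexes, and up to 3 genes per direction of each other list. The values of 1 member are not reported here, though it stays in counts over all 55. Members and lists were chosen with earlier results of these data known. Floors cover counting error only. Python 3.11.15 was used.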

Additional observations from a re-analysis of the deposited data

How the results depend on the processing

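Of the 38 called members, 28 kept their call in all 15 alternatives other than a required fold, where tested, and no called member changed sign. Requiring a fold above 1.5 left 16, 13 higher and 3 lower, with 2011 higher (17.7%) and 2129 lower (18.8%) over all genes, 5 and 3 in the list of further modification genes, and 9 and 3 in the list of end processing. A mean CPM of at least 10 left 8 members untested. Members higher and lower numbered 21 and 16 with the replicate block, which ended the call of TRMT10A (-0.18). The labels do not say whether the replicate numbers pair the libraries. Leaving out a library gave 18 to 21 higher and 15 to 17 lower. Uncalled members changed sign in 24 values. With total-count scaling these were ELP2 (-0.25), NSUN2 (-0.20), NSUN4 (-0.0482), NSUN6 (-0.0771), TRIT1 (-0.13), TRMT11 (-0.21), TRMT1L (-0.25), TRMT44 (-0.00841), TRMT61B (-0.0757) and TYW3 (-0.20), of which ELP2, NSUN2, TRMT11 and TRMT1L were called lower. That scaling also called PUS7L (-0.43), PUSL1 (-0.32), TRMT61A (-0.31) and TYW5 (-0.54) lower, and a mean CPM of at least 10 called PUS7L (-0.22) and TYW5 (-0.33) lower. With upper-quartile scaling they were ELP2 (-0.0180) and TRMT1L (-0.0186), and with a mean CPM of at least 10 ELP2 (-0.035), TRMT11 (-0.0021) and TRMT1L (-0.036). With thinned knockout libraries they were ADAT2 (-0.00900), TRMT1L (-0.043) and TYW3 (-0.036). Without METTL18 knockout replicate 2 they were PUSL1 (0.0213), TRMT1L (-0.0194) and TRMT61A (0.0300), without wild type replicate 1 PUS10 (0.0316) and TRMT61A (0.0909), and without wild type replicate 2 PUSL1 (0.0270). Over left-out libraries PUSL1 ran from -0.12 to 0.0270, the TRMT1L log2 fold change from -0.0194 to 0.0486 and TRMT61A from -0.15 to 0.0909. The log2 ratio of CTU1 to CTU2 ran from 0.52 to 1.07 over left-out libraries, and the log2 ratio of METTL1 to WDR4 from -0.16 to 0.29 (it was -0.0301 without METTL18 knockout replicate 2). The cause of these changes was not tested. ADAT3 and TYW1B had the fewest counts, with 7 and 6 in the wild-type libraries for either gene.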
